A study of Arabidopsis thaliana with 20 samples.

Results

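The non-specific lipid transfer proteins LTP1 to LTP6 of *Arabidopsis thaliana* were followed by 3'RNA-seq in WT and in *msh-1*. The members were taken by their gene identifiers, AT2G38540 (LTP1), AT2G38530 (LTP2), AT5G59320 (LTP3), AT5G59310 (LTP4), AT3G51600 (LTP5) and AT3G08770 (LTP6), which are 6 of the 37184 genes in the count files. All 6 had a count in at least 1 library, as did 23032 genes in all. WT is the Col-0 accession, and *msh-1* is a line in which a T-DNA insertion disrupts *MUSHER*, a long non-coding RNA gene. Both genotypes were grown on soil in long days, with no treatment named, and 4 libraries of each were made; the labels call the material siliques of 13 to 20 days after pollination, whereas the paper's text speaks of freshly harvested seeds. *msh-1* is a single insertion line, and the labels do not say how many plants were pooled for a library. The question put to the data was how much of each member these libraries held and whether its level differed between the genotypes.

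Lipid transfer proteins are small, secreted proteins in which disulphide bonds hold a bundle of helices around a hydrophobic tunnel that can take up a lipid chain. They are best known from the epidermis, where they are abundant in the outer cell wall and are linked to the building of the cuticle. Several members also respond to drought, abscisic acid (ABA) and pathogens. Cuticles also form inside the seed, on the embryo and on the endosperm.

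The members differ in sequence at their 3' ends, which bears on counting them apart because they include 2 pairs of neighbouring genes. In the RefSeq annotation of TAIR10.1, to which all 6 identifiers matched, LTP2 and LTP1 follow one another on the forward strand of chromosome 2, 890 bases apart. LTP4 on the reverse strand and LTP3 on the forward strand of chromosome 5 point away from each other across 2996 bases. LTP5 and LTP6 lie apart on the reverse strand of chromosome 3. Each gene has 2 exons in its first transcript model, and none overlaps another annotated gene. The stretch of coding sequence shown here, 72 bases from RefSeq in each gene, runs from the paired cysteine codons to the 2 cysteine codons separated by a single codon, which form the most conserved part of the family. Cysteine codons are in capitals.
LTP1: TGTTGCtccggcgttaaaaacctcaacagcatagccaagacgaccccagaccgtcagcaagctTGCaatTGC
LTP2: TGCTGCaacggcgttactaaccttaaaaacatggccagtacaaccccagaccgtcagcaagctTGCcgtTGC
LTP3: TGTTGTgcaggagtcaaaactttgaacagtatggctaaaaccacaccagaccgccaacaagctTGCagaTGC
LTP4: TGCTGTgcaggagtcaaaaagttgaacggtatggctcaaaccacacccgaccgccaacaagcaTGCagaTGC
LTP5: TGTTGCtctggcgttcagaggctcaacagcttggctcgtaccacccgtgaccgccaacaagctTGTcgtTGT
LTP6: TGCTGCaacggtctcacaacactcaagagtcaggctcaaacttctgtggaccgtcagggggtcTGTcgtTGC
The 4 cysteines of the stretch were present in every member, and the bases between them were most alike within the neighbouring pairs. Over the whole coding sequence LTP3 and LTP4 were 84.5% identical, with a shared run of 44 bases, and LTP1 and LTP2 were 82.4% identical. The other pairs were between 51.3% (LTP5 and LTP6) and 67.8% (LTP1 and LTP5) identical. Since 3'RNA-seq reads come from the ends of transcripts, the last 300 bases of each mRNA bear most on the counting. There, LTP1 and LTP2 shared no run longer than 18 bases and LTP3 and LTP4 none longer than 17. All 251 windows of 50 bases in this end were found once in the genome for LTP1 to LTP5, and 245 of 251 were for LTP6, whose other 6 windows were not found as 1 block. The read length and the treatment of reads with several matches are not given in the sources used here.

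The libraries held 959004 to 2498295 counts in WT and 2590800 to 6500907 in *msh-1*, so that every *msh-1* library was deeper than every WT library, and depth and genotype cannot be told apart. The level is given as CPM, the counts scaled to a common library size after TMM normalisation; because each transcript gives its 3' end, it is not divided by length. A single count was worth 0.40 to 1.1 CPM in WT and 0.160 to 0.382 CPM in *msh-1*. The genotype labels fitted the genes named by the study: PIR1 ran from 8.76 to 12 CPM over WT and from 0 to 0.321 CPM over *msh-1*, and DOG1 at 36.2 to 48.5 and 20.7 to 23.4 CPM. WT replicate 4 and *msh-1* replicate 1 stood apart from the other libraries in some lists of marker genes, but not in all. The summed level of 6 markers of the silique wall and valve margin was 96.4 and 94.2 CPM in these libraries against 243 to 295 CPM in the others, with IND at 0 in all. ADPG1 made up most of this sum, at 92.0 and 88.1 CPM in these libraries. Likewise, 10 markers of green tissue summed to 24.1 and 44.3 CPM against 129 to 170 CPM, and 7 markers of the seed coat to 4.38 and 4.81 CPM against 8.76 to 23.1 CPM. All 6 epidermis markers were detected, at a sum of 32.6 to 42.4 CPM for WT and 37.9 to 45.1 CPM for *msh-1*. An earlier comparison of mean counts, not shown here, appeared to place WT replicate 4 and *msh-1* replicate 1 outside the study's table of changed genes. The paper, however, gives n = 4 for its comparison and reports that no data were left out. Results for the members and the number of genes called are therefore given with and without both libraries. Other genes are described over all 8 libraries.

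LTP2 was the one member with ample counts. Its counts were 90, 179, 218 and 71 over WT replicates 1 to 4 and 570, 322, 371 and 529 over those of *msh-1*, and it ranked 911 by mean level among the genes with a count. LTP2, which is known to be needed for the integrity of the cuticle in dark-grown seedlings, made up 97.2% ± 0.68 (SD, n = 4) of the counts of the 6 members in WT and 90.8% ± 5.01 in *msh-1*. The other 5 members together gave 2 to 6 counts per WT library, against 66, 6, 50 and 77 for *msh-1* replicates 1 to 4. In WT the order of mean levels was LTP2, LTP4 (0.671 CPM), LTP3 (0.611), LTP5 (0.397), LTP6 (0.274) and LTP1 (0.200), and in *msh-1* LTP2, LTP4 (5.71), LTP3 (2.38), LTP1 (1.53), LTP6 (1.24) and LTP5 (0.783). Below LTP2, no step between neighbours in either order exceeded the larger SD of the genes beside it. The share of all counts that the 6 members took was 0.00780% ± 0.00081 in WT and 0.0125% ± 0.0020 in *msh-1*.

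As a level, LTP2 stood at 69.3, 74.9, 87.2 and 77.8 CPM over WT replicates 1 to 4 and at 91.5, 123, 115 and 125 CPM over those of *msh-1*. Every *msh-1* library was above every WT library, and the closest pair were *msh-1* replicate 1 and WT replicate 3. WT averaged 77.3 ± 7.50 CPM (SD, n = 4) and *msh-1* averaged 114 ± 15.5 CPM. The fitted log2 fold change was 0.54 with an SE of 0.12, a fold of 1.46, and the adjusted p was 0.0771 (edgeR, quasi-likelihood test over 10902 genes). A gene was called when its adjusted p was below 0.05 and its fold over 1.5, so LTP2 was not called. The exact two-sided permutation test over the 8 libraries gave p = 0.0286, the smallest that 4 against 4 libraries allow. LTP2 was the only member that passed the filter on low counts, so 0 of 1 tested member was called, where 0.101% of all tested genes were called higher in *msh-1*. Groups that did not overlap, with *msh-1* above, were found for 2.57% of the tested genes. In bulk samples such as these, more cells that express LTP2 and more LTP2 RNA per cell cannot be told apart.

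**Figure D1:**
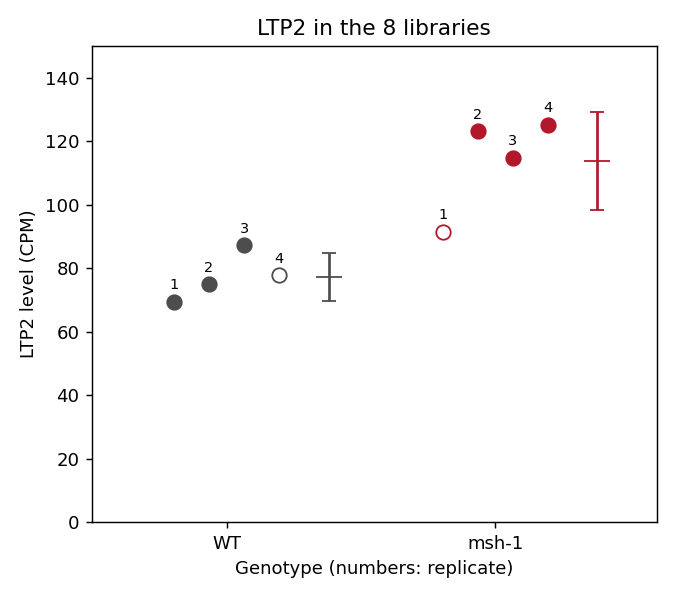
LTP2 level in CPM (vertical axis, from 0) in each library of WT and *msh-1* (horizontal axis), with replicate numbers; lines and bars give the mean and SD of 4 libraries, and open circles mark WT replicate 4 and *msh-1* replicate 1. The WT libraries lie between 69.3 and 87.2 CPM and the *msh-1* libraries between 91.5 and 125 CPM, with *msh-1* replicate 1 nearest to WT.

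Leaving out the libraries that stood apart moved LTP2 past both thresholds. Without WT replicate 4 and *msh-1* replicate 1, the means were 77.1 ± 9.17 and 121 ± 5.56 CPM (SD, n = 3), the log2 fold change was 0.64 with an SE of 0.10, and the adjusted p from edgeR was 0.000359. In these 6 libraries LTP2 was called, as were 0.947% of the tested genes in the same direction. The exact permutation test gave p = 0.1, the smallest possible with these 6 libraries. WT replicate 4 was the shallowest of all libraries, at 959004 counts, and *msh-1* replicate 1 the deepest, at 6500907, so leaving them out also changed the depth. The call rested on *msh-1* replicate 1, since leaving out this library alone gave a log2 fold change of 0.64 and an adjusted p of 0.00189, whereas leaving out WT replicate 4 alone gave 0.54 and 0.0682. LTP2 was not called without any of the other 6 libraries, where the log2 fold change ran from 0.49 to 0.62. The part of the marker genes or of depth in this dependence was not tested. The summed level of the epidermis markers overlapped between the genotypes, but its members differed. ATML1, a homeobox gene of the epidermis that made up most of the sum, averaged 23.1 ± 1.47 CPM for WT and 21.6 ± 1.45 CPM for *msh-1* (SD, n = 4; log2 fold change -0.07, SE 0.13, adjusted p = 0.982, edgeR). PDF1, a protein of the protoderm, stood at 0.770, 2.93, 4.40 and 3.29 CPM over WT replicates 1 to 4 and at 4.49, 5.35, 4.64 and 4.50 CPM over those of *msh-1*, so that its groups, like those of LTP2, did not overlap (log2 fold change 0.61, SE 0.34, adjusted p = 0.673, edgeR; exact permutation p = 0.0286). FDH, an enzyme of fatty acid elongation in the epidermis, gave 3 counts in WT and 18 in *msh-1*, with overlapping levels. The part of epidermal RNA in the level of LTP2 was not tested.

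**Figure D2:**
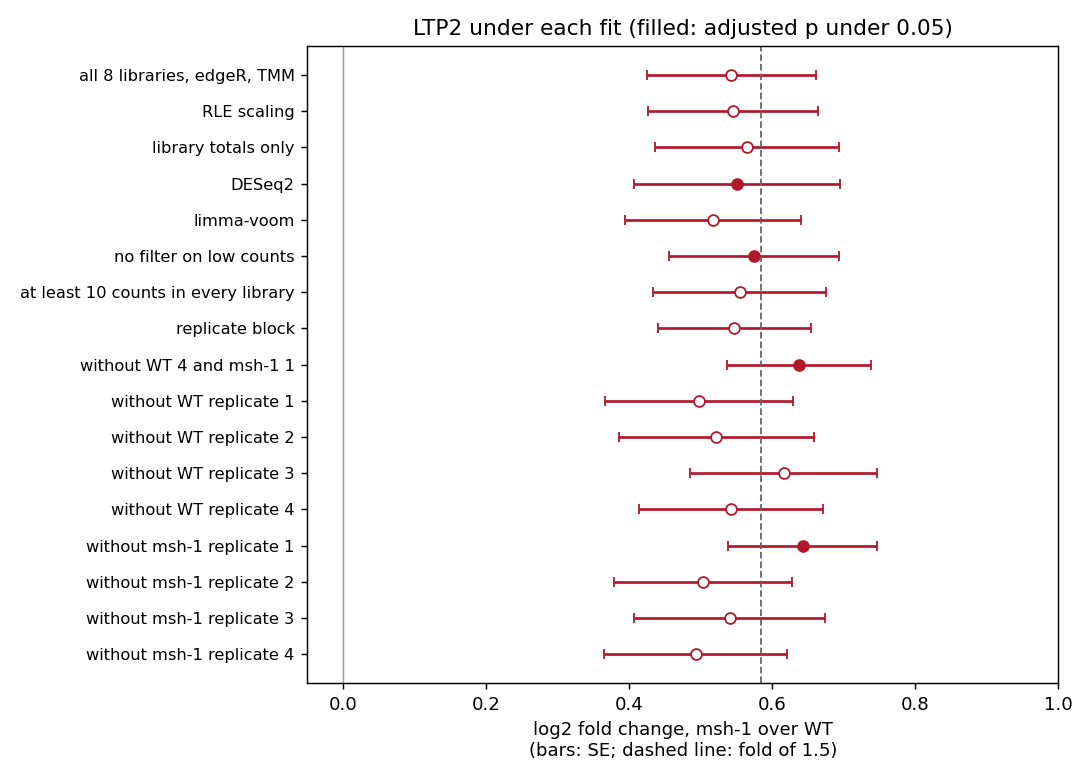
LTP2 log2 fold change of *msh-1* over WT (horizontal axis) under each fit (rows), with bars for the SE; filled circles have an adjusted p under 0.05, and the dashed line marks a fold of 1.5. All values are above 0, from 0.49 to 0.64, and the filled circles right of the dashed line are those of both fits without *msh-1* replicate 1.

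LTP1, the neighbour of LTP2, was close to the limit of detection. This gene, whose protein was localised to the epidermal cell wall, gave 0, 0, 2 and 0 counts over WT replicates 1 to 4 and 3, 1, 7 and 13 over those of *msh-1*. A count of 0 allowed up to 2.31, 1.26 and 3.29 CPM in WT replicates 1, 2 and 4, taking 3 counts as the floor. The levels overlapped, since WT replicate 3 stood at 0.80 CPM and *msh-1* replicates 1 and 2 at 0.481 and 0.382 CPM. Over the pooled counts, 24 against 2, the level in *msh-1* was 5.23 times that in WT, with an exact 95% interval of 1.3 to 45.6 that covers counting error only. The exact permutation test gave p = 0.0857. Within a library, the log2 ratio of LTP1 to LTP2 averaged -7.40 ± 0.85 for WT and -6.51 ± 1.22 for *msh-1* (SD, n = 4; difference 0.89, exact permutation p = 0.286, and 0.571 after adjustment over the 2 ratios compared), and this difference changed sign with a larger pseudocount.

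LTP4 had the highest pooled ratio of the members, close to that of LTP6. LTP3 and LTP4 are known as ABA- and drought-inducible genes, and LTP3 as a target of the transcription factor MYB96. Each WT library held 1 count of LTP4, and *msh-1* replicates 1 to 4 held 31, 1, 29 and 36. Thus, 3 of 4 *msh-1* libraries, at 4.97, 8.97 and 8.52 CPM, were above every WT library, which lay between 0.40 and 1.1 CPM, whereas *msh-1* replicate 2 was at 0.382 CPM. If the WT libraries had held LTP4 at the pooled level of *msh-1*, 7.72, 14.2, 14.9 and 5.43 counts would have been found in replicates 1 to 4. At that same level *msh-1* replicate 2 would have held 15.6 counts, but it held 1, so the pooled level does not describe every *msh-1* library. The pooled level in *msh-1* was 10.6 times that in WT (97 against 4 counts; exact 95% interval 3.99 to 39.5, counting error only). Over libraries, the exact permutation test gave p = 0.143, and p = 0.0286 without *msh-1* replicate 2. LTP4 did not pass the filter on low counts. When all genes with a count were fitted without this filter, LTP4 was the 1 member called (log2 fold change 3.31, SE 0.55, adjusted p = 2.80e-07, edgeR), where 0.508% of 23032 genes were called higher, while DESeq2 gave 3.30 with an adjusted p of 0.0801. Without WT replicate 4 and *msh-1* replicate 1, the levels were 0.530 ± 0.209 and 5.96 ± 4.83 CPM (SD, n = 3), with an exact permutation p of 0.4, where 0.1 is the smallest possible.

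LTP3, the other gene of this pair, had fewer counts and overlapping groups. Its counts were 1, 4, 0 and 0 over WT replicates 1 to 4 and 15, 2, 6 and 19 over those of *msh-1*. In CPM, WT reached 1.67 in replicate 2, and the *msh-1* libraries were at 2.41, 0.765, 1.86 and 4.50, so that replicate 2 was again the lowest of its genotype. The pooled level in *msh-1* was 3.66 times that in WT (42 against 5 counts; exact 95% interval 1.45 to 11.8), and the exact permutation test gave p = 0.0857. The log2 ratio of LTP3 to LTP4 within a library averaged -0.40 ± 1.52 for WT and -0.84 ± 1.20 for *msh-1* (SD, n = 4; difference -0.45, exact permutation p = 0.657, and 0.657 after adjustment). No difference in this ratio was therefore detectable at this depth, and its sign turned, to 0.21, without WT replicate 2.

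LTP5 and LTP6 held the fewest counts in *msh-1*. LTP5, which acts in the growth and guidance of pollen tubes, had 1, 1, 1 and 0 counts in WT and 5, 2, 2 and 4 in *msh-1*, a pooled ratio of 1.89 with an exact 95% interval of 0.519 to 10.3 that includes equal levels. The *msh-1* libraries ran from 0.618 to 0.947 CPM of LTP5, and WT ran from 0 to 0.770 CPM (exact permutation p = 0.0857). Without WT replicate 1 the groups no longer overlapped (exact permutation p = 0.0286), on counts of at most 1 in each WT library that was left. LTP6 had 0, 0, 0 and 1 counts in WT and 12, 0, 6 and 5 in *msh-1*, a pooled ratio of 10.0 with an interval of 1.63 to 413. Its levels in *msh-1* were 1.93, 0, 1.86 and 1.18 CPM, and WT replicate 4 was at 1.1 CPM on its single count (exact permutation p = 0.143). *msh-1* replicate 2 thus held the lowest *msh-1* level of LTP1, LTP3, LTP4 and LTP6, but the second highest of LTP2. Without WT replicate 4 and *msh-1* replicate 1, the exact permutation p was 0.2 for LTP1, 0.3 for LTP3, 0.3 for LTP5 and 0.4 for LTP6.

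**Figure D3:**
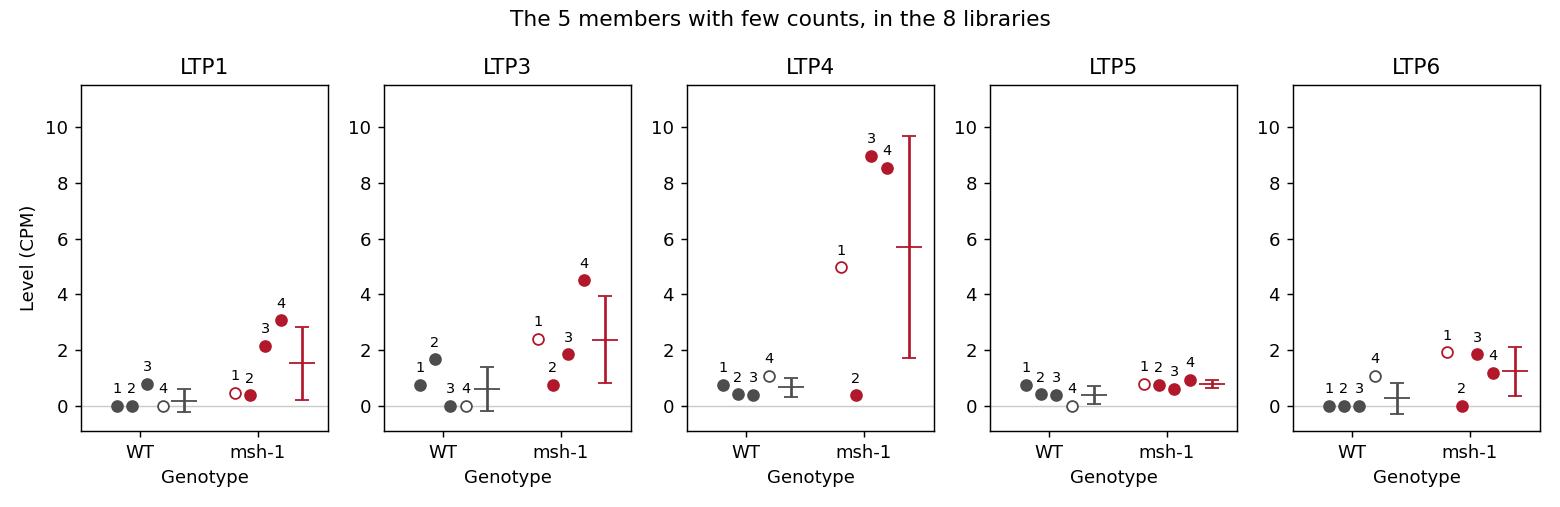
Levels of LTP1, LTP3, LTP4, LTP5 and LTP6 in CPM (vertical axis, the same in each panel) in the WT and *msh-1* libraries, with replicate numbers, means and SDs of 4 libraries, and open circles for WT replicate 4 and *msh-1* replicate 1. LTP4 in *msh-1* replicates 1, 3 and 4 lies between 4.97 and 8.97 CPM, while replicate 2 lies among the WT libraries.

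The genes around the members were examined for their own levels. The 2 nearest genes on each side, members excepted, were 16 genes, of which 12 had a count, 9 passed the filter and 0 were called by edgeR, DESeq2 or limma-voom, with 1 of them (WOX2) higher at an unadjusted p below 0.05. Of all tested genes, 3.99% were higher and 4.49% lower at that p. The log2 fold changes of the 9 ran from -0.25 to 0.78. The highest was that of WOX2, a homeobox gene of the early embryo that lies 3521 bases from LTP3. WOX2 stood at 15.4, 13.8, 21.6 and 15.3 CPM over WT replicates 1 to 4 and at 27.4, 28.7, 25.7 and 33.9 CPM over those of *msh-1*, and the groups did not overlap (log2 fold change 0.78, SE 0.16, adjusted p = 0.0667, edgeR; exact permutation p = 0.0286). Of the neighbours of LTP2 and LTP1, AT2G38550 had a log2 fold change of -0.05 (SE 0.16, adjusted p = 1.000, edgeR) and TFIIS, a transcription elongation factor, of 0.08 (SE 0.09, adjusted p = 0.881, edgeR). The lipid transfer gene LTP12 beside LTP5 and AT5G59330 beside LTP3 had no count in any library.

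Other genes of the same biology were described by lists. Of 6 further non-specific lipid transfer genes (LTP7 to LTP12), LTP8, LTP11 and LTP12 had no count and 0 passed the filter; LTP9 held the most, with 0 counts in WT and 0, 1, 3 and 4 in *msh-1* replicates 1 to 4. Of 6 lipid transfer proteins with a GPI anchor, 3 passed the filter, and 0 were called by edgeR, DESeq2 or limma-voom or had an unadjusted p below 0.05. Their most abundant member was LTPG1, which acts in the export of wax to the stem surface, with 60.8 ± 6.62 CPM for WT and 55.3 ± 3.09 CPM for *msh-1* (SD, n = 4; log2 fold change -0.11, SE 0.10, adjusted p = 0.851, edgeR). The other tested genes with a GPI anchor had higher means in *msh-1*. LTPG5 had a log2 fold change of 0.82 (SE 0.55, adjusted p = 0.738, edgeR), and LTPG20 of 0.91 (SE 0.70, adjusted p = 0.777, edgeR). In each, 3 of 4 *msh-1* libraries were above every WT library, and the share of all tested genes with this pattern is not given here. The remaining library, *msh-1* replicate 1, was at 2.41 CPM for LTPG5. For LTPG20 it was at 0.481 CPM, below every WT library. The median log2 fold change of this list, which with 3 tested genes is the value of LTPG5 alone, was 0.82 beside -0.01 for all tested genes. DIR1, a lipid transfer-like protein of systemic resistance, held the most counts of 6 genes of its list, 17 in WT and 32 in *msh-1*, and none of these passed the filter. By product name, 128 genes in the files belong to the lipid transfer superfamily, a set chosen after values of these data were known. Of these, 66 had a count, 8 passed the filter and 0 were called by the 3 tools, with 1 higher (LTP2) and 1 lower (AT1G48750) at an unadjusted p below 0.05. LTP2 ranked 5 by mean level after AT1G62510, AT5G55410, AT1G48750 and AT5G64080.

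Genes of the cuticle and of the ABA response, with which these proteins are associated, were taken next. Of 24 genes for the synthesis and export of cutin and wax, 7 passed the filter, and 0 were called by the 3 tools or had an unadjusted p below 0.05, with a median log2 fold change of 0.09 beside -0.01 for all tested genes. KCR1, the reductase of fatty acid elongation and the most counted of them, had a log2 fold change of -0.14 (SE 0.18, adjusted p = 0.894, edgeR). In 2 genes of the list, named after their values were seen, every *msh-1* library was above every WT library. LACS1, an acyl-CoA synthetase of the cuticle, had a log2 fold change of 0.46 (SE 0.26, adjusted p = 0.718, edgeR). GPAT6, an acyltransferase of cutin synthesis that did not pass the filter, gave 2 counts in WT and 26 in *msh-1* (pooled ratio 5.66, exact 95% interval 1.42 to 49.2). The exact permutation p was 0.0286 for each. Such groups were found for 2.57% of the tested genes, a share that covers LACS1 but not GPAT6. None of 8 regulators of cuticle genes passed the filter. MYB30 held the most counts of them, with 3.47 ± 1.59 CPM for WT and 4.16 ± 1.26 CPM for *msh-1*, and MYB96 averaged 1.38 ± 0.961 and 1.05 ± 0.832 CPM. Of 14 genes of the ABA and drought response, 7 passed and 0 were called by the 3 tools, with 2 higher at an unadjusted p below 0.05 and a median log2 fold change of 0.00. Of all tested genes, 3.99% were higher at that p. The 2 were NCED3 (log2 fold change 1.16, SE 0.31, adjusted p = 0.168, edgeR) and RD29B (0.21, SE 0.07, adjusted p = 0.298, edgeR). RAB18, a dehydrin and the most abundant of the 14, had a log2 fold change of -0.02 (SE 0.08, adjusted p = 0.983, edgeR). Among the 42 marker genes, 26 passed, of which 2 were higher and 5 lower at an unadjusted p below 0.05. Of all tested genes, 3.99% were higher and 4.49% lower at that p. Of the 26 markers, 1 was called, the seed storage albumin gene SESA4, which fell by 0.73 on the log2 scale (SE 0.15, adjusted p = 0.0457, edgeR). DESeq2 also called this gene and limma-voom called 0 of the markers, and 0.312% of all tested genes were called lower by edgeR.

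The genes whose levels over the 8 libraries were most like those of LTP2, by Pearson's r of log2(CPM + 0.5) among the genes that passed the filter, were DHS1 (r = 0.98), an enzyme at the entry to the shikimate pathway, AT2G40390 (r = 0.97) and APR1 (r = 0.96), a reductase of sulphate assimilation. These values share the libraries and their depth and are a description over 8 points. APR1 averaged 25.4 ± 2.45 CPM for WT and 34.2 ± 4.98 CPM for *msh-1* (SD, n = 4). For LTP1 the nearest were RBCS3B, a gene of the small subunit of Rubisco (r = 0.94), FMO GS-OX4 (r = 0.94) and RSW10 (r = 0.92). For LTP3 they were IMPA-4 (r = 0.93), AT2G01690 (r = 0.91) and AT5G63130 (r = 0.91), and for LTP4 they were NRPB11 (r = 0.95), AT5G24890 (r = 0.95) and MLP31 (r = 0.93). For LTP5 they were MEMB12 (r = 0.99), AT4G24130 (r = 0.98) and NFD5 (r = 0.98), and for LTP6 the mitochondrial ATMG01370 (r = 0.97), the plastid ATCG01130 (r = 0.97) and TPX1 (r = 0.96). For these 5 members the levels behind r rest on libraries with 0 to a few counts. Since these genes were picked for following members whose mean was higher in *msh-1*, their own differences between the genotypes are not read.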

How the data were processed

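Counts of 8 3'RNA-seq libraries, 4 of WT and 4 of *msh-1*, were analysed; the chromatin purification samples (ChIRP-seq, ChIDP-seq) were left out, as they do not measure transcript levels. The authors primed cDNA with barcoded oligo(dT) carrying unique molecular identifiers, aligned the reads with STAR (2.7.8a) to TAIR10, and deposited whole-number counts per gene without normalization. Whether reads or identifiers were counted, the annotation and the strand setting are not given in the sources used here. The series calls the 4 libraries biological replicates without naming what separated them, so p-values measure the spread between these libraries.

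From these counts, libraries were scaled by TMM, low counts were filtered with filterByExpr, and the quasi-likelihood test with Benjamini-Hochberg adjustment was run in edgeR 4.0.16 (R 4.3.3), and genes were called at an adjusted p of less than 0.05 with a fold of more than 1.5. SEs are the absolute log2 fold change over the square root of F. DESeq2 1.42.0 and limma 3.58.1 were alternatives, as were other scalings and filters, the replicate number as a block, and leaving out libraries. For single genes, log2(CPM + 0.5) was also compared with an exact permutation test over libraries (two-sided), and pooled counts by an exact 95% binomial interval. Symbols, gene order and sequences came from RefSeq on TAIR10.1, to which 36899 identifiers matched; the files' build is TAIR10, so no coordinates are given. The code was tested on simulated counts. Named genes are the members, the 3 genes most alike in level to each, and the 2 nearest genes on each side. The called genes of the lists, PIR1 and DOG1 were also named. So was the most counted gene of each list, except for the embryo storage, green tissue and endosperm markers. Others (MYB96, LACS1, GPAT6, PDF1, FDH, PDF2, HDG2, ACR4, BAN, LTPG5, LTPG20, CA1, RD22, RD29B, NCED3 and the superfamily genes) were picked with their values known. The alternative without WT replicate 4 and *msh-1* replicate 1 was set because an earlier comparison of mean counts appeared to place both outside the study's table of changed genes. That comparison is not shown here, and the paper itself gives n = 4 and reports that no data were left out. The members and the lists were chosen with earlier results of these data known.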

Additional observations from a re-analysis of the deposited data

Results flagged for a closer look

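In 2 of 30 groups of 4 values examined for the members, 1 library lay far from the others, where chance alone gives about 1.5. LTP1 stood at 0.80 CPM in WT replicate 3 while the other WT libraries held no count of it, and this value comes from 2 counts. LTP6 stood at 1.1 CPM in WT replicate 4, from 1 count, while the other WT libraries held none.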

How the results depend on the processing

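The number of genes called was 45 in all 8 libraries. It was 25 with library totals, 89 with DESeq2, 24 with limma-voom, 438 without the filter, 1 with at least 10 counts in every library and 280 without WT replicate 4 and *msh-1* replicate 1, and 4 to 210 with 1 library left out; the cause was not tested. LTP2 kept its direction under every alternative. It passed both thresholds without WT replicate 4 and *msh-1* replicate 1 (log2 fold change 0.64), and over single libraries left out it ran from 0.49 to 0.64, with adjusted p-values from 0.00189 to 0.357 (edgeR), past the thresholds only without *msh-1* replicate 1. DESeq2 (0.55, adjusted p = 0.0256) and the fit without a filter (0.57, adjusted p = 0.00017) passed the first threshold but not the fold. LTP4 passed without the filter (3.31); with 1 library left out its difference in mean log2(CPM + 0.5) ran from 1.63 to 2.77, past an exact p of 0.05 only without *msh-1* replicate 2, and that of LTP5 from 0.33 to 0.78, past it only without WT replicate 1. The log2 ratio of LTP1 to LTP2 turned to -0.28 with a pseudocount of 2, and that of LTP3 to LTP4 ran from -0.97 to 0.21 with 1 library left out. LTP1, LTP3, LTP5 and LTP6 were not called by edgeR without a filter or by DESeq2. For the low members the stricter filter and limma-voom gave no value.

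With the replicate number as a block, edgeR called 24 genes and gave LTP2 a log2 fold change of 0.55 with an adjusted p of 0.0927. The levels showed no clear pairing by replicate number. Deviations of same-numbered libraries from their group means correlated at -0.221, 0.147, 0.059 and -0.086 for replicates 1 to 4. Not every library correlated best with its own number, and the highest value was 0.396, for WT replicate 4 with *msh-1* replicate 1. Such correlations cannot tell whether same-numbered libraries were prepared together.

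Depth limits the 5 members other than LTP2, whose counts in a WT library were 0 to 4. Their intervals cover counting error only.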

Other observations

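Among the listed genes, CA1, RD22 and NCED3 were picked after their values were seen, to set them beside LTP4, which was low in *msh-1* replicate 2. CA1, a plastid carbonic anhydrase, held 0, 2, 2 and 2 counts across WT replicates 1 to 4 and 11, 1, 26 and 30 across those of *msh-1*. As a level it overlapped between the genotypes: 2 of 4 *msh-1* libraries, at 8.04 and 7.10 CPM, were above every WT library, and WT replicate 4 at 2.19 CPM was above the others (exact permutation p = 0.2). RD22, a dehydration-responsive gene, was also low in *msh-1* replicate 2, at 0 CPM, but 1 of 4 *msh-1* libraries, at 4.02 CPM, was above every WT library (exact permutation p = 0.486). NCED3, which codes for an enzyme at the limiting step of ABA synthesis, was not low in that library: it stood at 3.85, 5.44, 8.4 and 3.29 CPM over the WT replicates and at 8.67, 17.6, 12.4 and 15.4 CPM over the *msh-1* replicates, without overlap (log2 fold change 1.16, SE 0.31, adjusted p = 0.168, edgeR; exact permutation p = 0.0286).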
